A study of Mus musculus with 14 samples.

Results

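Hosts carrying an instigating tumour were set against all hosts without one. All 14 arrays of the series entered this comparison. The 5 arrays titled Instigator formed one side, and the 4 titled Matrigel with the 5 titled Non-instigator formed the other side of 9. The question is what sets the marrow cells of instigator-bearing mice apart from those of any other host, tumour-free or tumour-bearing.

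The cells were mouse bone marrow cells sorted as positive for Sca1 and negative for cKit, and each array measured 1 biotin-labelled RNA sample. Instigator hosts bore tumours of BPLER, a line of transformed human breast epithelial cells. Non-instigator hosts bore tumours of PC3, a human prostate cancer line. Matrigel hosts received the basement membrane extract without tumour cells. No label gives the strain, age or sex of the hosts. The labels also do not state that each array is a different animal, and every p-value here reflects only how far these samples scatter, part of which may be technical. The description of Instigator 5 names the PC3 tumour, while its title and source characteristic name the instigating tumour. It was kept with the Instigator side, and values with it counted as Non-instigator are given for the separated genes and for several gene lists.

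Sca1, encoded by Ly6a, marks stem cells and many committed marrow cells, whereas cKit is the receptor for stem cell factor and is lost as most lineages mature. A fraction that carries Sca1 but lacks cKit therefore can hold lymphoid cells, plasmacytoid dendritic cells and their precursors, and some myeloid cells, beside less defined progenitors. Granulin, a secreted growth factor precursor encoded by Grn, is the protein that work on instigating tumours links to such marrow cells. In sorted bulk RNA, fewer cells of a type and less RNA per cell cannot be told apart. No probe set is annotated to Ly6a by itself, and the selection for Sca1 was not checked here. Kit was measured at 7.36 to 7.93 on the Instigator arrays and at 6.82 to 8.05 on the 9 others.

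Values are log2 of the deposited RMA intensity, and a difference is the Instigator mean minus the mean of the 9 others. Each gene is represented by its brightest probe set. Instigator 4 and Matrigel 3 stood apart technically. The beta-actin control probe sets of Instigator 4 read -3.41 for the 5′ end minus the 3′ end where the other 13 arrays read -0.81 to -0.51, and for Gapdh the readings were -4.03 and -1.16 to -0.73. The median log2 intensity of Matrigel 3 was 7.18, above the 6.90 to 7.01 found on the rest. Results without both arrays (4 against 8, 12 arrays) are given beside the main values as the 12-array values.

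No probe set was called. By limma with Benjamini-Hochberg adjustment over 22626 probe sets, 0 had an adjusted p under 0.05 (0%), and the smallest adjusted p was 0.296, for Polr3f. The unadjusted p was under 0.05 at 2423 probe sets, or 10.7%. The same count for Non-instigator against Matrigel, the groups pooled here, was 477 probe sets, or 2.11%. That contrast set 5 arrays against 4, in a separate fit with each group as its own level. The main fit set 5 against 9. These counts differ in fit and in number of arrays, so their sizes cannot be compared directly. Over the 12 arrays the count for Instigator against the others was 2295 (10.1%), again with 0 called. Every gene named below therefore failed correction, and directions are given as measured values.

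The balance between higher and lower probe sets moved with the scaling. Of the 2423 probe sets, 916 lay higher and 1507 lower in Instigator arrays, so that 37.8% were higher. After quantile normalization 52.0% were higher, after centring each array on its median 60.9%, and with array weights 49.8%. Without Matrigel 3 the share was 50.5%, and over the 12 arrays it was 55.6%, with 1276 higher and 1019 lower. The excess of lower over higher probe sets thus did not hold across these scalings. Among the 12393 genes the median difference was 0.01 with 52.3% above 0, and over the 12 arrays it was 0.02 with 58.8% above 0.

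**Figure D1:**
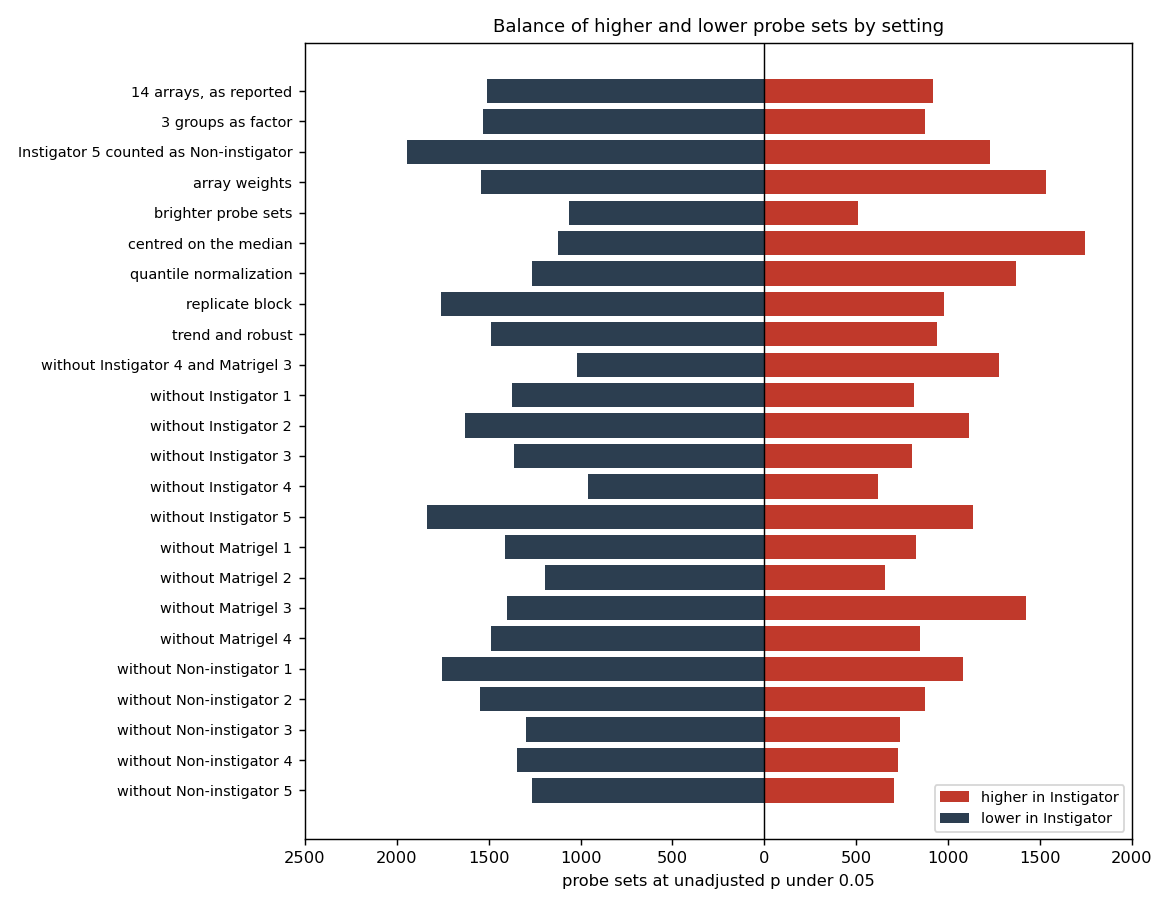
Number of probe sets at an unadjusted p under 0.05 that lay higher (red, to the right) or lower (dark, to the left) in Instigator arrays, for the 14-array fit and each alternative. The bars lean to the lower side with all 14 arrays (916 against 1507) and to the higher side after centring on the median (1744 against 1121).

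Some probe sets separated the sides completely. The 5 Instigator values lay above all 9 others at 25 probe sets (0.11%) and below all 9 at 29 (0.128%). Over the 12 arrays, with fewer values to clear, the counts were 161 (0.712%) and 49 (0.217%). Of the 54 probe sets, 23 were the brightest set of a named gene, 13 higher (0.105% of genes) and 10 lower (0.0807%). The differences at these 23 genes were small, from 0.14 to 0.55 in size, and the gap between the sides was 0.18 at most. With Instigator 5 counted as Non-instigator, 4 of the 23 genes still separated the sides. They were Impact and Wrn, which lay lower, and Clint1 and Zranb2, which lay higher and were singled out after their values were seen.

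Polr3f, a subunit of RNA polymerase III, which transcribes transfer RNA and 5S ribosomal RNA genes, had the smallest p and the widest gap. It was measured at 7.06, 7.26, 7.05, 7.06 and 6.74 on Instigator arrays 1 to 5, and between 7.44 and 7.81 with a median of 7.56 on the 9 others. The highest Instigator array thus lay 0.18 below the lowest of the others. The mean was 7.03 ± 0.18 (SD, n = 5) against 7.58 ± 0.14 (SD, n = 9), a difference of -0.55 (SE 0.09, 95% confidence interval -0.74 to -0.36, 1.46-fold lower, limma adjusted p = 0.296). The difference was -0.62 against Matrigel and -0.50 against Non-instigator, and -0.54 over the 12 arrays. The other Polr3f probe set differed by -0.25. The 14 measured genes of the RNA polymerase III list had a median difference of 0.01, so Polr3f did not share its direction with the list. Polr3a, the largest subunit, differed by 0.51 (SE 0.24), and by 0.18 over the 12 arrays.

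Wrn, the RecQ helicase mutated in Werner syndrome, was measured at 8.56, 8.73, 8.46, 8.49 and 8.74 on Instigator arrays 1 to 5, and at 8.79 to 9.05 on the others. The difference was -0.35 (SE 0.07, limma adjusted p = 0.419), and -0.32 over the 12 arrays. It rests on 1 probe set, since its other 2 sets differed by -0.07 and 0.11. Impact, an inhibitor of the amino acid starvation kinase Gcn2, was measured at 7.57, 7.73, 7.51, 7.69 and 7.78 on the Instigator arrays. The 9 others ran from 7.84 to 8.46, and the difference was -0.52 (SE 0.11, limma adjusted p = 0.419). Both the Wrn and the Impact separation remained with Instigator 5 moved to the other side.

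Icmt, which methylates prenylated proteins, and Ykt6, a SNARE of vesicle fusion, also lay lower on every Instigator array. Their differences were -0.35 (SE 0.10) and -0.30 (SE 0.11), and both were smaller over the 12 arrays, at -0.21 and -0.14. Instigator 4 had the lowest value for each, 8.09 for Icmt and 8.67 for Ykt6. The other 5 lower genes that separated the sides, named after their values were seen, were Prpsap2, Terf2, Psmd10, Znrf2 and Katna1. Terf2, a telomere-binding protein of the shelterin complex, differed by -0.27 (SE 0.07), with Instigator values of 7.88 to 8.14 below 8.17 to 8.50.

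**Figure D2:**
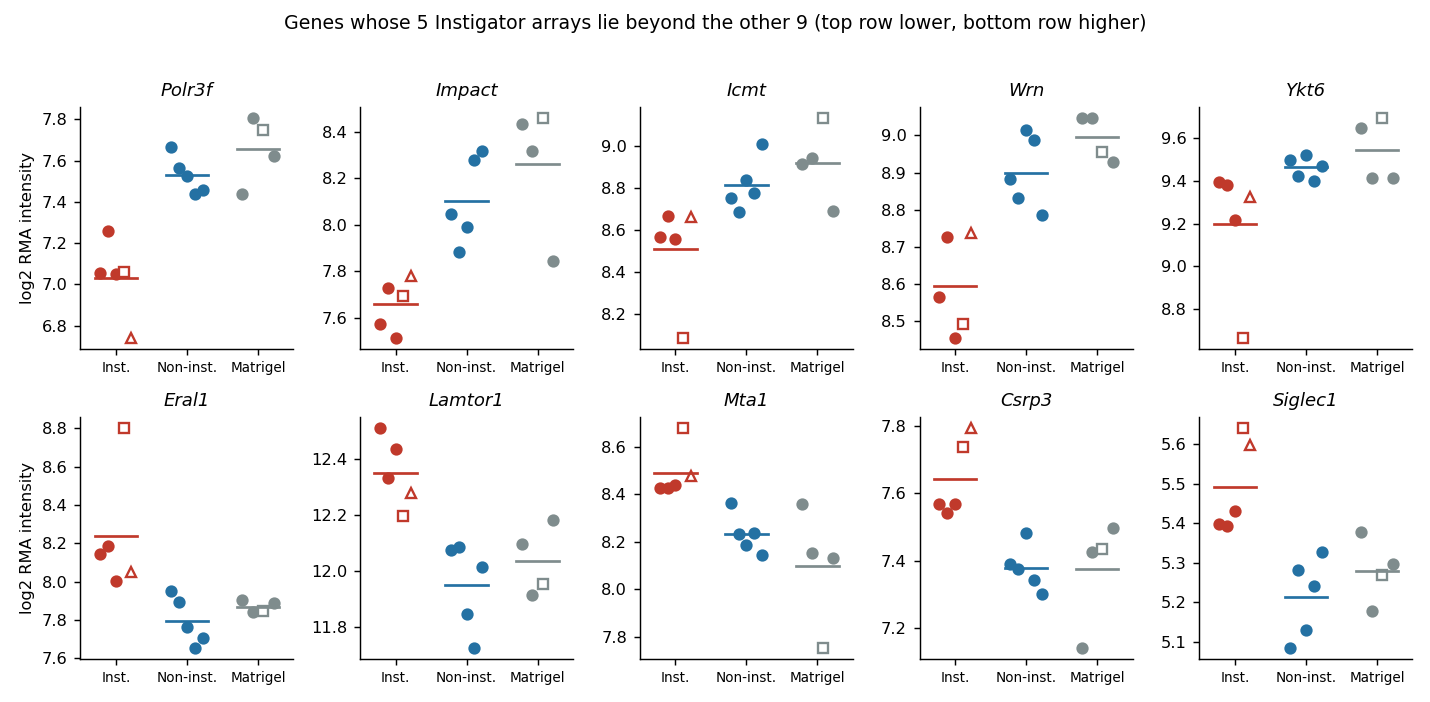
Log2 RMA intensity on each array for the 5 lower (top row) and 5 higher (bottom row) genes with the largest differences among those whose sides do not overlap. Lines are group means, the open square is Instigator 4 or Matrigel 3 and the open triangle is Instigator 5; for Polr3f all Instigator values lie at or below 7.26 and all others at or above 7.44.

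Among genes that lay higher, Lamtor1 had the smallest p of those that separated the sides. It anchors the Ragulator complex, through which the growth regulator mTOR is held at the lysosome. It was measured at 12.51, 12.33, 12.44, 12.20 and 12.28 on Instigator arrays 1 to 5, and at 11.73 to 12.18 on the 9 others. The difference was 0.36 (SE 0.08, limma adjusted p = 0.419) and 0.40 over the 12 arrays, but its other 2 probe sets differed by -0.08 and 0.12. Eral1, a chaperone of mitochondrial ribosomal RNA, differed by 0.41 (SE 0.11) at an x_at probe set, a kind that can also bind transcripts of other genes. Its value of 8.80 on Instigator 4 stood above the other Instigator arrays, which reached 8.19 at most, and over the 12 arrays the difference was 0.27. Its other 4 sets differed by -0.02 to 0.45. Mta1, a subunit of the NuRD chromatin remodelling complex, differed by 0.32 (SE 0.09) and by 0.22 over the 12 arrays. Csrp3, a LIM-domain protein known from muscle, and Siglec1, a sialic acid receptor of macrophages, differed by 0.26 (SE 0.07) and 0.25 (SE 0.07). The other 2 Siglec1 sets differed by 0.08 and -0.14. The 8 other higher genes that separated the sides differed by 0.14 to 0.25. They included Pdxk and Cdc42ep3, and, named after their values were seen, Clint1, Zranb2, Kazn, Dtd2, Ctsr and Neurod4. Of the 23 genes that separated the sides, 5 were dimmer than the median probe set. Siglec1 averaged 5.49 on the Instigator arrays and 5.24 on the others, and Kazn, Dtd2, Ctsr and Neurod4 averaged 4.08 to 5.18 on the Instigator arrays. Whether such dim genes are expressed in these cells was not tested.

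Other genes with the smallest p on the lower side had sides that overlapped. Tnfrsf19, a receptor of the tumour necrosis factor family, averaged 5.74 ± 0.45 (SD, n = 5) against 6.58 ± 0.37 (SD, n = 9), and 4 of its Instigator values lay below all 9 others. The difference was -0.85 (SE 0.20, limma adjusted p = 0.419), whereas its other 2 probe sets differed by -0.17 and 0.04. Sparc, a secreted matrix glycoprotein of stromal cells, was measured at 7.47, 7.57, 7.01, 7.58 and 7.78 on the Instigator arrays and at 7.56 to 8.54 on the others. It differed by -0.70 (SE 0.16) and by -0.68 over the 12 arrays, with -0.24 at its other probe set. The remaining genes of this group were D930016D06Rik (-0.71), Gm17546 (-0.63), Lbh (-0.49), Tgds (-0.44) and Prkacb (-0.37), a catalytic subunit of protein kinase A. For D930016D06Rik, Lbh and Prkacb the other probe set differed by -0.04, -0.02 and -0.04, and averaging both sets gave -0.38, -0.25 and -0.20. Each had a limma adjusted p of 0.419. Tnfrsf19 and Gm17546, the latter at 5.69 against 6.31, averaged below the median of every array, 6.90 to 7.18. Whether these 2 genes are expressed in these cells was not tested.

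On the higher side the smallest p belonged to Dnmt1, the maintenance DNA methyltransferase. It was measured at 11.93, 11.70, 12.04, 12.14 and 11.86 on Instigator arrays 1 to 5, and at 11.33 to 11.72 on the 9 others, so that 4 of the 5 cleared every other array. The difference was 0.43 (SE 0.09, limma adjusted p = 0.419) at an x_at probe set, 0.27 at its other set, and 0.36 over the 12 arrays. Egln3, a prolyl hydroxylase that marks hypoxia-inducible factors for degradation, differed by 0.45 (SE 0.11), and its other set by 0.29. Pole, which encodes the catalytic chain of polymerase epsilon, differed by 0.52 (SE 0.14). Map7d1 differed by 0.46, the kinase gene Cdkl2 by 0.40, the galactosyltransferase gene B3galt6 by 0.33 and the cytokine gene Lif by 0.26. Cdkl2, B3galt6 and Lif were dim. They averaged 6.58, 6.57 and 5.86 on the Instigator arrays, below the median of every array, 6.90 to 7.18. Whether they are expressed in these cells was not tested. The pyridoxal kinase gene Pdxk differed by 0.25 and Cdc42ep3, an effector of the GTPase Cdc42, by 0.22. For B3galt6, Lif, Pdxk and Cdc42ep3 every other probe set of the gene differed by less than 0, with the lowest at -0.13 for Pdxk.

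The 12-array fit shared Polr3f, Wrn and Tgds on the lower side and Lamtor1 on the higher side with these lists. Its other leading genes were Dguok, the mitochondrial deoxyguanosine kinase (-0.26), and 4930430F08Rik (-0.32) on the lower side. On the higher side they were Plxnb2, a semaphorin receptor (0.34), the homeobox gene Gsc (0.29), Zfp772 (0.27) and Rad9b, a subunit of a checkpoint clamp (0.26). Gsc differed by 0.09 (SE 0.22) with all 14 arrays, where Matrigel 3 lay at 6.58 and the other 8 arrays of its side at 4.91 to 5.12. All of these had a limma adjusted p of 0.424 in the 12-array fit. Gsc, Zfp772, Rad9b and 4930430F08Rik averaged 5.30, 4.30, 6.17 and 5.73 on the Instigator arrays, below the median of every array. Whether they are expressed in these cells was not tested.

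Granulin was measured at 10.45, 10.69, 10.67, 10.69 and 10.73 on Instigator arrays 1 to 5. The 9 others ran from 10.19 to 10.66 with a median of 10.44. Thus 4 of 5 Instigator arrays lay above all 9, Instigator 3 only barely (10.665, against 10.660 on Matrigel 1), and Instigator 1 lay among them. The difference was 0.22 (SE 0.08, 95% confidence interval 0.04 to 0.40, 1.16-fold), which did not pass limma's test (adjusted p = 0.427). It was 0.17 over the 12 arrays, and 0.27 and 0.36 at the other 2 probe sets, both x_at sets. At those 2 sets only Instigator 4 lay above all 9 others, at 10.85 and 10.88. The highest of the 9 others stood at 10.45 for both, and the remaining Instigator arrays lay among them. Kit differed by 0.14 (SE 0.18, 95% confidence interval -0.23 to 0.52, limma adjusted p = 0.797), and by -0.10 at its other probe set.

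Gene lists were described by their medians beside the median of all genes, 0.01. Of 662 listed genes measured in 33 lists, 45 lay higher and 52 lower at an unadjusted p under 0.05, and 0 were called. Over all genes 551 (4.45%) lay higher and 644 (5.2%) lower at that threshold, and over the 12 arrays 697 (5.62%) and 498 (4.02%). These shares are the background for every list count below. With single arrays left out the counts over all 22626 probe sets also moved, from 617 to 1427 higher and from 957 to 1836 lower. The lists whose medians lay farthest from that of all genes were those of dendritic, B, plasma, T and NK cells and of chemokine receptors and egress on the lower side, and those of neutrophil granules and DNA replication on the higher side. The medians of these lists kept their sign in each of the 23 alternative settings. The B cell precursor median did so only barely, at -0.00074 in the leave-out fit where it was highest. The settings reuse the same arrays, and the lists were chosen with earlier results of these data known. The unchanged signs are therefore not independent support for the directions. The lists on the lower side also varied together over the same arrays. Instigator 3 had the lowest mean of all 14 arrays for the dendritic, B cell precursor, mature B, plasma, T and NK lists. Non-instigator 1 had the lowest mean of the 9 others for each of these but the NK list. Counts of members and of lists are thus not separate evidence. Fits against Matrigel and against Non-instigator share the Instigator arrays, and their medians are given side by side as descriptions. With Instigator 5 counted as Non-instigator the dendritic, mature B, B precursor, plasma, T and NK medians were -0.35, -0.38, -0.31, -0.31, -0.29 and -0.34. The members lower at p under 0.05 then numbered 8, 3, 3, 4, 5 and 9. Over all probe sets the lower count rose from 1507 to 1945.

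**Figure D3:**
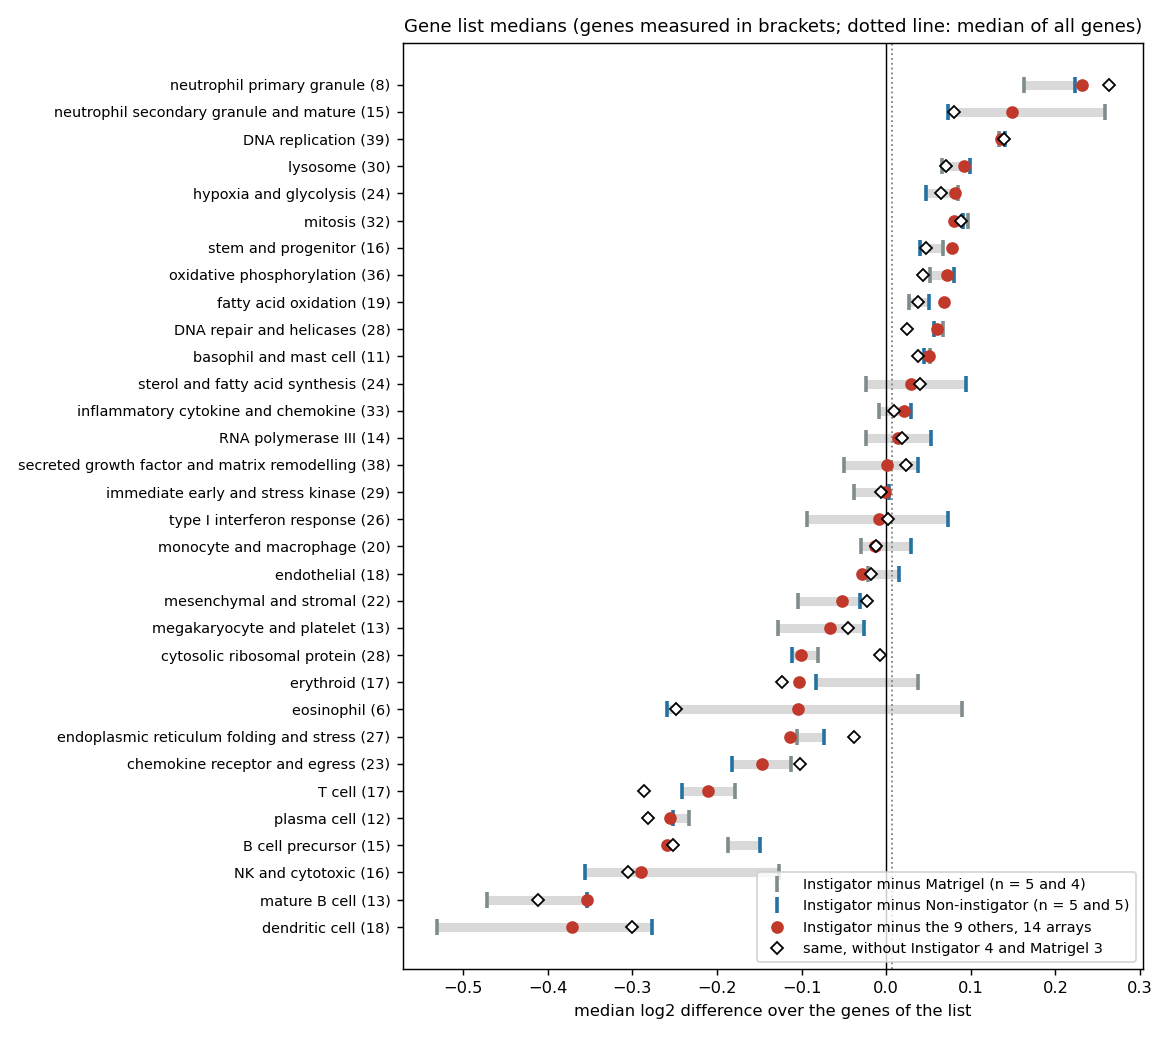
Median log2 difference over the measured genes of each of 32 lists, for Instigator against the 9 others (red), the same over 12 arrays (open diamonds), and against Matrigel (grey bars) and Non-instigator (blue bars) alone. Dendritic cell genes lie lowest (-0.37) and neutrophil primary granule genes highest (0.23); the dotted line marks the median of all genes.

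Dendritic cell genes had the lowest median, -0.37 over 18 measured genes, with 16 below 0. Of the 18, 7 lay lower at an unadjusted p under 0.05, beside 5.2% of all genes, and 0 were called. Against Matrigel the median was -0.53 and against Non-instigator -0.28. The list includes class II antigen presentation genes, which B cells also express. The mean of the list per array ran from 8.18 to 8.95 on the Instigator arrays and from 8.31 to 9.27 on the 9 others. Non-instigator 1 was the single low array among the 9, since the other 8 lay at 8.86 or above, and only Instigator 2 exceeded 8.86.

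The C-type lectin Cd209d was measured at 7.42, 8.22, 6.50, 7.41 and 7.55 on Instigator arrays 1 to 5. On the 9 others it ran from 7.70 to 9.40 with a median of 8.02, so that every Instigator array but 1 lay below all 9. The difference was -0.93 (SE 0.29, limma adjusted p = 0.419), or 1.91-fold lower. Its relative Cd209a differed by -0.83 (SE 0.29), with -1.11 against Matrigel and -0.60 against Non-instigator. The class II chain H2-Aa differed by -0.64 (SE 0.24), from 10.67 ± 0.53 (SD, n = 5) against 11.31 ± 0.47 (SD, n = 9). Its other probe set, an x_at set, differed by -0.25 (SE 0.25). Ly6d, a surface marker of lymphoid and plasmacytoid precursors, differed by -0.68 (SE 0.32). Instigator 4 lay at 8.11 for Ly6d, and over the 12 arrays the difference was -0.29. Spib, Tcf4 and Bst2, of which the former are transcription factors of plasmacytoid dendritic cells, were also at p under 0.05, at -0.60, -0.44 and -0.53, and Bst2 was at -0.25 over the 12 arrays. These 3, like other list members named beyond the 4 largest differences of a list, were named after their values were seen.

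Over the 12 arrays the dendritic median was -0.30, and 2 of 18 genes lay lower at p under 0.05. The count was 2 without Instigator 3 or without Instigator 4 alone, and 4 without Matrigel 1, Matrigel 2, Matrigel 3 or Non-instigator 5. Leaving out single arrays took the median from -0.49, without Non-instigator 1, to -0.26, without Instigator 3.

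Mature B cell genes all lay lower, 13 of 13, with a median of -0.35. Against Matrigel the median was -0.47, against Non-instigator -0.35, and over the 12 arrays -0.41. At p under 0.05 there were 5 of 13, beside 5.2% of all genes, and 0 of 13 over the 12 arrays, beside 4.02%. List means ran from 8.40 to 9.50 on Instigator arrays and from 8.59 to 9.98 on the others, an overlap that covers most of the range. Instigator 3 was the lowest of all 14 arrays, and without it the median was -0.24 with 0 of 13 genes at p under 0.05. The count was 2 without Instigator 4, Matrigel 1, Matrigel 2 or Non-instigator 5, 3 without Instigator 5, and 9 without Non-instigator 1.

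Cd83, a marker of activated B and dendritic cells, was measured at 8.24, 8.85, 7.30, 7.85 and 8.30 on the Instigator arrays, against 7.45 to 9.74 with a median of 9.02 on the others. The difference was -0.79 (SE 0.31, limma adjusted p = 0.427). Non-instigator 1 held the value of 7.45, and the other 8 arrays of its side lay at 8.58 or above. Cd79b, a signalling chain of the B cell receptor, differed by -0.56 (SE 0.23) and the complement receptor gene Cr2 by -0.52 (SE 0.24). Ms4a1, which encodes the B cell antigen CD20, differed by -0.53 (SE 0.30, limma adjusted p = 0.528), and by -0.78 at its other probe set.

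For B cell precursor genes the median was -0.26, 11 of 15 lay below 0 and 2 were at p under 0.05. The count was 1 without Instigator 3 or Instigator 4 and 4 without Matrigel 3. The median was -0.25 over the 12 arrays but 0.00 without Instigator 3, whose list mean of 7.86 lay under the 8.41 to 8.68 of the other Instigator arrays. Igll1, part of the surrogate light chain of the pre-B cell receptor, was measured at 9.32, 9.45, 9.01, 8.90 and 9.75. The 9 others ran from 9.21 to 10.75, and the difference was -0.74 (SE 0.20, limma adjusted p = 0.419), or -0.55 over the 12 arrays. At its other probe set, an x_at set, the difference was -0.30 (SE 0.19). Vpreb3, also of that receptor complex, differed by -0.46 (SE 0.18). The recombinase gene Rag1 differed by -0.49 (SE 0.27), and the interleukin receptor gene Il7r by -0.39 (SE 0.28). For Il7r, Instigator 3 lay at 8.89 and the other Instigator arrays at 10.01 to 10.40, and the 12-array difference was -0.61.

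Plasma cell genes all lay lower, 12 of 12. Their median was -0.26, with -0.23 against Matrigel and -0.25 against Non-instigator. Of the 12, 3 were at p under 0.05, beside 5.2% of all genes. Over the 12 arrays 3 were, beside 4.02%, and the median was -0.28. The count was 1 without Instigator 3, 7 without Non-instigator 1, and 2 to 4 without any other array. Of the Instigator arrays, 4 had list means of 9.01 to 9.28, and Instigator 5 stood at 9.66, within the 9.03 to 9.97 of the other side. Tnfrsf17, the B cell maturation antigen of plasma cells, also had Instigator 5 apart from the other Instigator arrays. It was measured at 6.82, 6.87, 6.95, 6.89 and 7.66 on Instigator arrays 1 to 5 and at 6.76 to 8.15 with a median of 7.80 on the others. The difference was -0.65 (SE 0.21, limma adjusted p = 0.426). Syndecan 1 (Sdc1), the classical plasma cell surface marker, differed by -0.74 (SE 0.30), with -0.62, -0.61 and 0.09 at its other sets, and Irf4, a transcription factor of plasma cell differentiation, by -0.67 (SE 0.30). Derl3, of endoplasmic reticulum quality control, differed by -0.41 (SE 0.26).

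**Figure D4:**
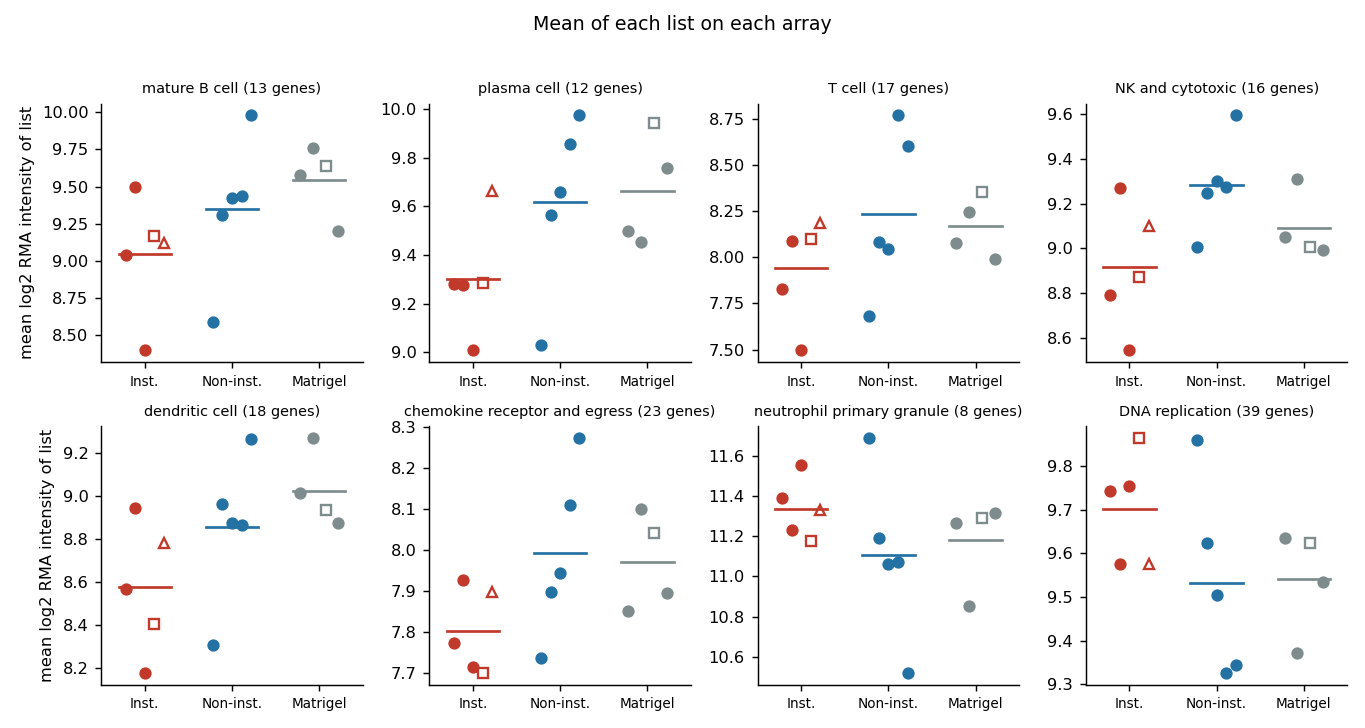
Mean log2 RMA intensity of 8 gene lists on each array, by group; lines are group means, the open square is Instigator 4 or Matrigel 3 and the open triangle is Instigator 5. In each panel the sides overlap, with Instigator 3 lowest for the B, plasma, T, NK and dendritic cell lists and Non-instigator 1 near or below the Instigator arrays in several.

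Of 17 T cell genes, 16 lay lower, and the median was -0.21, or -0.29 over the 12 arrays. At p under 0.05 there were 4 of 17, beside 5.2% of all genes, and 2 over the 12 arrays, beside 4.02%. The count was 1 without Instigator 3 and 7 without Non-instigator 1. Ccr7, the chemokine receptor that guides naive T cells and dendritic cells to lymph nodes, was measured at 7.11, 7.64, 6.59, 6.55 and 7.52 on the Instigator arrays. It ran from 6.87 to 8.57 with a median of 7.83 on the others, a difference of -0.67 (SE 0.25, limma adjusted p = 0.427). Cd28, the costimulatory receptor, differed by -0.61 (SE 0.25) and by -0.92 at its other probe set. Cd247, the zeta chain of the T cell receptor, differed by -0.46 (SE 0.14), with 3 Instigator values below all 9 others, and its other sets by -0.77 to -0.07. The coreceptor chain Cd8b1 differed by -0.52 (SE 0.28), and Cd4 by -0.39 (SE 0.15).

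The NK and cytotoxic list held 15 of 16 genes below 0, and its median was -0.29. The pooled side was not uniform for this list. The median was -0.36 against Non-instigator and -0.13 against Matrigel, and Non-instigator lay above Matrigel by a median of 0.20. At p under 0.05 there were 6 of 16, beside 5.2% of all genes. Over the 12 arrays there were 5, beside 4.02%, and the median was -0.31. The count was 2 without Instigator 4, 3 without Instigator 3, 4 without Instigator 1, Non-instigator 3 or Non-instigator 5, and 9 without Instigator 2. Klrk1, the activating receptor NKG2D, was measured at 7.77 to 9.19 with a median of 8.20 on the Instigator arrays and at 8.30 to 9.99 on the others, with 3 Instigator arrays below all 9. The difference was -0.69 (SE 0.31, limma adjusted p = 0.448). The Tec kinase gene Txk differed by -0.57 (SE 0.19), the natural cytotoxicity receptor Ncr1 by -0.52 (SE 0.20) and perforin (Prf1) by -0.37 (SE 0.15), or -0.18 over the 12 arrays. S1pr5, the sphingosine phosphate receptor through which NK cells leave the marrow, differed by -0.44 (SE 0.14), with -0.22 against Matrigel and -0.62 against Non-instigator.

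Genes of chemokine receptors and marrow egress had a median of -0.15, with 16 of 23 below 0 and 6 at p under 0.05. Over the 12 arrays the median was -0.10 with 3 at p under 0.05, the same count as without Instigator 4 alone, and without Non-instigator 1 the count was 9. With Instigator 5 counted as Non-instigator the median was -0.22. Several members mark the lymphoid cells above, namely Ccr7, S1pr5, Ccr6 (-0.43, SE 0.17) and Cxcr5 (-0.43, SE 0.25, and -0.29 over the 12 arrays). The integrin chain Itga4 differed by -0.52 (SE 0.20), by -0.29 over the 12 arrays, and by -0.19 and -0.06 at its other 2 probe sets. Cxcr4, which retains haematopoietic cells in the marrow, differed by 0.09 (SE 0.08).

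Neutrophil primary granule genes had the highest median, 0.23 over 8 genes, with 7 above 0. None was at p under 0.05 with all arrays, and up to 2 were when an array was left out, the most without Non-instigator 1. The median was 0.16 against Matrigel, 0.22 against Non-instigator and 0.26 over the 12 arrays. List means lay between 11.18 and 11.56 on the Instigator arrays, inside the 10.52 to 11.69 of the other side. Ms4a3, a marker of granulocyte and monocyte progenitors, was measured at 11.33, 10.90, 11.50, 11.74 and 11.14 against 10.06 to 11.56, and differed by 0.43 (SE 0.21, limma adjusted p = 0.474). The granule proteases Prtn3 and Ctsg differed by 0.29 (SE 0.20) and 0.25 (SE 0.16), and Cebpa, a transcription factor of granulocyte fate, by 0.25 (SE 0.18), or 0.40 over the 12 arrays.

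Secondary granule and mature neutrophil genes had a median of 0.15, and of 0.08 over the 12 arrays, with 14 of 15 above 0. None was at p under 0.05 with all arrays, but 5 were without Non-instigator 3, 4 without Instigator 5 and 3 without Non-instigator 1. Here too the pooled side was not uniform, since the median was 0.26 against Matrigel and 0.07 against Non-instigator. Non-instigator lay above Matrigel by a median of 0.22. Matrigel 3 had the lowest list mean of all 14 arrays, 10.72, and without it alone the median was 0.12. The surface antigen gene Cd177 lay 0.27 higher (SE 0.13). The iron-binding granule protein lactoferrin, Ltf, lay 0.25 higher (SE 0.15), and Mmp8, a collagenase, 0.24 (SE 0.14). For each of these the difference was 0.43 to 0.44 against Matrigel and 0.07 to 0.14 against Non-instigator. Without Matrigel 3 the differences from the remaining 8 arrays were 0.21 for Cd177, 0.15 for Ltf and 0.17 for Mmp8. Padi4, the enzyme that citrullinates histones in neutrophils, differed by 0.57 (SE 0.28). It lay at 9.63 on Instigator 4 and at 7.51 to 8.06 on the other Instigator arrays, and over the 12 arrays it differed by 0.14.

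**Figure D5:**
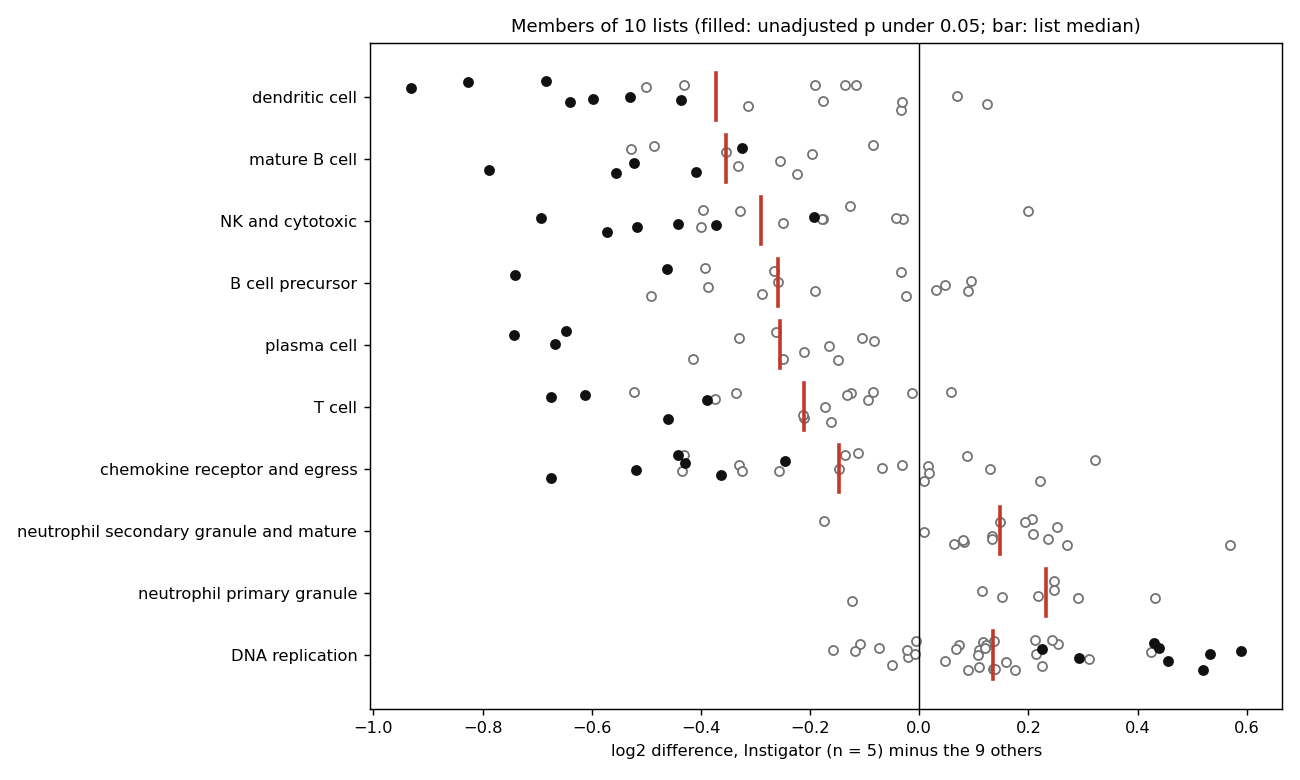
Log2 difference of each measured gene in 10 lists, Instigator minus the 9 others, with genes at an unadjusted p under 0.05 filled and the list median as a red bar. Mature B and plasma cell genes all lie below 0, and in the DNA replication list the 8 filled genes all lie above 0.

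Of 39 DNA replication genes, 30 lay higher, and 37 over the 12 arrays, and the median was 0.14 in both. Over all genes the share above 0 also rose, from 52.3% to 58.8% over the 12 arrays. At p under 0.05 there were 8 of 39, beside 4.45% of all genes, and 6 of 39 over the 12 arrays, beside 5.62%. The median was 0.13 against Matrigel and 0.14 against Non-instigator. Leaving out each array gave counts of 5, without Instigator 4, to 10, without Non-instigator 1. List means ran from 9.58 to 9.86 on Instigator arrays and from 9.33 to 9.86 on the others, where Non-instigator 1 was highest.

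Mcm2, a subunit of the replicative helicase, was measured at 9.79, 9.53, 9.76, 10.68 and 9.49 on Instigator arrays 1 to 5 and at 8.97 to 9.86 on the others. The difference was 0.59 (SE 0.18, limma adjusted p = 0.419), 0.42 over the 12 arrays and 0.14 at its other probe set. Cdt1, which loads that helicase onto DNA, was measured at 10.45, 10.30, 10.70, 11.08 and 10.54 against 9.66 to 10.58, and differed by 0.53 (SE 0.15). Pold1, the catalytic subunit of DNA polymerase delta, differed by 0.46 (SE 0.20), by 0.20 without Instigator 4, and by 0.14 over the 12 arrays. These values are from an x_at probe set, and its other set differed by 0.15 (SE 0.12). At the x_at set the arrays were uneven. Instigator 4 lay at 11.89 and the other Instigator arrays at 10.44 to 10.73, and Matrigel 3 was the lowest of the 9 at 9.94. The loading factor Cdc6 differed by 0.44 (SE 0.18), the flap endonuclease Fen1 by 0.29 (SE 0.10) and DNA ligase I (Lig1) by 0.22 (SE 0.09). Over the 12 arrays they differed by 0.26, 0.20 and 0.14. Instigator 4, the array with the extreme control differences, was highest for the list, and the median without it was 0.12.

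The median of the mitosis list was 0.08. At p under 0.05, 5 of its 32 genes lay higher and 1 lower, beside 4.45% and 5.2% of all genes. The higher count was 0 without Instigator 4 and 1 over the 12 arrays. It was 1 without Matrigel 2, Non-instigator 4 or Non-instigator 5, 2 without Instigator 3 and 3 without Instigator 1. For hypoxia and glycolysis the median was also 0.08, and 5 of 24 genes lay higher at p under 0.05. Among them were Egln3 and the glycolytic enzyme genes Pgam1 (0.36, SE 0.10) and Ldha (0.43, SE 0.18, and 0.26 over the 12 arrays). In the other direction 8 of the 24 lay below 0, 1 of them at p under 0.05. Ddit4 of this list also lay lower and is described under other observations. Of these 24, 2 were higher at that threshold over the 12 arrays and also without Instigator 4 alone, and 3 without Instigator 1. The lysosome list had 4 of 30 genes higher at p under 0.05 around a median of 0.09, namely Grn, Lamp2 (0.19, SE 0.07), the proton pump subunit Atp6v0d1 (0.28, SE 0.10) and the acid glucosidase gene Gaa (0.46, SE 0.20). Over the 12 arrays the count was 1, for Lamp2 at 0.20, while Atp6v0d1 differed by 0.18 and Gaa by 0.14. The count was 7 without Instigator 5 or Non-instigator 1, and 8 with Instigator 5 counted as Non-instigator or after centring. Over all probe sets the higher count rose as well, from 916 to 1228 with Instigator 5 moved and to 1744 after centring.

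Endoplasmic reticulum folding and ribosomal protein genes lay lower, and both medians moved toward that of all genes over the 12 arrays. For cytosolic ribosomal proteins the median was -0.10, but -0.01 over the 12 arrays. Their list mean was 11.57 on Instigator 4 and 11.94 to 12.06 on the other 13 arrays. Endoplasmic reticulum folding genes, among which Hsp90b1 differed by -0.41 (SE 0.15) and Pdia4 by -0.46 (SE 0.16), had a median of -0.11, and -0.04 over the 12 arrays. There Hsp90b1 and Pdia4 both differed by -0.24. The type I interferon list had its median at -0.01. Its medians against Matrigel, -0.09, and against Non-instigator, 0.07, differed in sign. Whether the condition of the RNA on Instigator 4 bears on any of these values was not tested.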

How the data were processed

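RNA of Sca1+ cKit- marrow cells was measured on 14 mouse expression arrays, 1 per sample. The deposited values are intensity values on a linear scale, made by the authors with affy's RMA (R 2.11.0), per the submitters' processing notes. No source used here gives the RMA options. The main fit took these values as log2 without further normalization, though array medians ran from 6.90 to 7.18. Quantile normalization and centring were run as alternatives.

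Of 22690 probe sets, 64 controls were left out. The platform annotation gave 1 symbol for 20380 of the rest, several for 691 and none for 1555, and only the first kind was named. This left 12393 genes, each represented by the brightest of its probe sets, judged by the mean of all 14 arrays, and 12377 of their symbols were found in the RefSeq table.

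Groups follow the sample titles. The fit was limma 3.58.1 (R 4.3.3) with a 2-level factor over all 14 arrays, eBayes without trend, and Benjamini-Hochberg adjustment over 22626 probe sets at 0.05. It was tested on simulated data. Python 3.11.15 and matplotlib 3.10.9 made the figures. Gene lists (16 of cell type markers, 16 of processes and 1 sex-linked check, 662 measured of 764 genes) were described by medians and counts, with no set test. Members and lists were chosen with earlier results of these data known.

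Genes were named by rule. These were Grn and Kit, the 10 genes with the smallest p in each direction, and the 5 with the largest difference in each direction among those whose sides do not overlap. The rule added the 5 with the smallest p in each direction over 12 arrays, and, for the 10 lists farthest from the median of all genes, the 4 members with the largest difference. Alternatives were leaving out arrays, the group of Instigator 5, a 3-group factor, quantile normalization, centring, array weights, a trended and robust variance, brighter probe sets, averaging the probe sets of a gene, and the replicate number as a block. The counts of list members at p under 0.05 under such settings were added after seeing the data. Arrays carry no read depth, and their number limits the precision.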

Additional observations from a re-analysis of the deposited data

Results flagged for a closer look

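Of 168 tests for a single extreme array within a side, 28 found one, and chance alone marks about 1 in 20. They fell on Instigator 4 in 9 cases, Matrigel 3 in 8, Non-instigator 1 in 7, Instigator 1 in 2, and Instigator 3 and Instigator 5 in 1 each. Genes named for their differences were part of these tests, and the values are given without an explanation.

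Instigator 4 was extreme for both control differences, at -3.41 for actin and -4.03 for Gapdh, where the other Instigator arrays lay at -0.81 to -0.56 and -1.08 to -0.91. Among the genes that separated the sides it was high for Eral1 (8.80) and Mta1 (8.68) and low for Icmt (8.09) and Ykt6 (8.67). It was also high for Padi4 (9.63), Mcm2 (10.68) and Pold1 (11.89).

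Matrigel 3 had the highest median log2 intensity, 7.18, beside 6.97 to 6.99 for the others of its side. It was high for Tgds (7.97), Plxnb2 (7.58), Gsc (6.58) and 4930430F08Rik (6.57), and low for Mta1 (7.75), Dguok (7.67) and Ltf (11.22). For Ltf the other 8 arrays of its side reached up to 12.56.

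Non-instigator 1 lay below the rest of its side for genes of antigen-presenting, B and plasma cells. These were H2-Aa (10.25), Cd83 (7.45), Ms4a1 (9.09), Sdc1 (8.70), Irf4 (8.87) and Derl3 (6.92). Its dendritic list mean was 8.31, while the other 8 arrays lay at 8.86 to 9.27. For Sdc1 those 8 ran from 10.18 to 10.93.

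Instigator 1 was the low Instigator array for Grn at 10.45, with the other 4 at 10.67 to 10.73, and the high one for Mmp8 at 10.35, with the others at 9.98 to 10.06. Instigator 3 was low for Il7r at 8.89. Instigator 5, whose description names the PC3 tumour, was high for Tnfrsf17 at 7.66, where the other Instigator arrays lay at 6.82 to 6.95 and the median of the 9 others was 7.80.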

How the results depend on the processing

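No fit but 1 called a probe set. Without Instigator 2 there was 1 call, a Tmod3 probe set that is not the brightest of its gene (difference -0.72, limma adjusted p = 0.0222). With all arrays it differed by -0.61 with an adjusted p of 0.356, and Instigator 2 stood at 7.13 between 6.45 to 6.79 on the other Instigator arrays and 7.14 to 7.54 on the 9 others. Leaving out each array gave 0 to 1 calls, and 617 to 1427 higher and 957 to 1836 lower probe sets at an unadjusted p under 0.05. Probe sets with no overlap ranged from 28 to 68 higher and from 32 to 105 lower, where removing an array also leaves fewer values to clear. The extremes at p under 0.05 were 957 lower without Instigator 4 and 1427 higher without Matrigel 3.

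At an unadjusted p under 0.05 the higher count was 1532 with array weights, which were lowest for Matrigel 3 (0.146) and Instigator 4 (0.162), 1744 after centring and 512 among brighter probe sets, where fewer were tested. The probe sets with no overlap numbered 46 higher and 85 lower with Instigator 5 counted as Non-instigator, 161 and 49 without Instigator 4 and Matrigel 3, and 77 higher after centring. They numbered 38 higher after quantile normalization and 10 among brighter probe sets. Of the 54 found with all arrays, 12 kept their separation with Instigator 5 moved, 35 after centring and 28 after quantile normalization, and 21 were dimmer than the median probe set. The cause of these shifts was not tested.

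The genes chosen by the naming rule, or for separating the sides, kept their direction in all 23 alternatives, which reuse the same arrays. Other genes named were not followed through the alternatives. Of the gene lists, stem and progenitor genes had a median of -0.013 with the mean of probe sets against 0.08, lysosome genes 0.0077 against 0.09, and mesenchymal genes -0.31 among brighter probe sets against -0.05. The B cell precursor median ranged from -0.33 to -0.00074 when single arrays were left out. Among list members at an unadjusted p under 0.05, counts chosen after seeing the data, mature B cell genes numbered 2 after centring or quantile normalization against 5. Secondary granule genes numbered 4 after quantile normalization or with Instigator 5 moved, against 0. The higher counts over all probe sets in these 2 settings were 1373 and 1228, against 916. NK and cytotoxic genes numbered 4 after centring against 6, and 10 under the replicate block. The lower count over all probe sets was 1121 after centring, 1266 after quantile normalization and 1762 under the block, against 1507.

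The replicate block of the title numbers gave 977 higher and 1762 lower probe sets at an unadjusted p under 0.05 and 0 calls, with a smallest adjusted p of 0.327. Over the 13 same-number pairs the correlation of deviations ran from -0.20 to 0.27, and 5 were over 0.1. Pairs with different numbers ran from -0.39 to 0.32. No pairing was used, and correlations of this size cannot exclude one. The 14 arrays limit every value here.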

Other observations

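Some genes lay far from the median of their own list. All genes here were picked after their values were seen, none passed correction, and differences are Instigator minus the 9 others. The monocyte and macrophage list had a median of -0.01 that changed sign in 7 of 23 settings. Within it Csf1r, the receptor for macrophage colony-stimulating factor, averaged 10.88 against 10.11. That is a difference of 0.77 (SE 0.26, limma adjusted p = 0.426), and of 0.47 over the 12 arrays. The high-affinity Fc receptor Fcgr1 differed by 0.53 (SE 0.18), and the haem-degrading enzyme Hmox1 by -0.50 (SE 0.20). Among secreted factors and matrix genes, with a median of 0.00, fibronectin (Fn1) differed by 0.56 (SE 0.16) and by 0.46 over the 12 arrays. Tgfbi, a matrix protein induced by transforming growth factor beta, averaged 10.73 against 10.12, and differed by 0.62 (SE 0.19) and 0.42. Sparc, also a matrix gene, differed by -0.70.

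Ddit4, an mTOR inhibitor induced by hypoxia and glucocorticoids, averaged 9.75 against 10.77. It differed by -1.01 (SE 0.40, limma adjusted p = 0.427), and by -0.85 over the 12 arrays, while its hypoxia list had a median of 0.08. The platelet chemokine Pf4 differed by -0.91 (SE 0.41) but by -0.43 over the 12 arrays. Cpt1a, which admits fatty acids to mitochondria, differed by 0.68 (SE 0.28), with 1.08 against Matrigel, 0.36 against Non-instigator and 0.30 over the 12 arrays. Of the DNA repair genes, Parp1 differed by 0.29 (SE 0.08) and the kinase gene Atm by -0.27 (SE 0.10). The antiproliferative gene Btg2 differed by -0.64 (SE 0.20) and the transcription factor gene Klf4 by 0.43 (SE 0.15). The interferon-induced genes Ifih1 and Cmpk2 differed by 0.48 (SE 0.22) and 0.43 (SE 0.16), and both by 0.24 over the 12 arrays, within a list whose median was -0.01.

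The erythroid median was -0.10, and 3 of 17 genes lay lower at an unadjusted p under 0.05, among them the haem synthesis gene Alas2 (-0.52, SE 0.24). None of the 17 was lower at that threshold over the 12 arrays, after centring or after quantile normalization, nor without Instigator 3, Instigator 4, Non-instigator 2, Non-instigator 3 or Non-instigator 5. The count was 1 without Instigator 2, Matrigel 1 or Matrigel 2. The eosinophil median was -0.10, but 0.05 with Instigator 5 counted as Non-instigator. For oxidative phosphorylation the median was 0.07, and 4 of 36 genes lay higher at that threshold, beside 4.45% of all genes. The count was 0 over the 12 arrays, 1 without Instigator 1, Instigator 4 or Matrigel 2, 2 without Matrigel 4, Non-instigator 3, Non-instigator 4 or Non-instigator 5, and 8 with Instigator 5 counted as Non-instigator. Within the pooled side, Non-instigator lay above Matrigel by a median of 0.32 for basophil and mast cell genes and 0.35 for eosinophil genes. Matrigel 3 had the lowest mean of all 14 arrays for both lists, at 6.67 and 7.35. The eosinophil list held only 6 measured genes, and its Matrigel means ran from 7.35 to 8.50. Xist averaged 12.01 on the Instigator arrays and 11.93 on the others, and the Y-linked genes Eif2s3y, Kdm5d and Uty averaged 3.86 to 5.02.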
